A study of Mus musculus with 24 samples.

Results

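Krüppel-like factors were followed across 24 one-colour microarrays of Ku70-/- mouse embryonic fibroblasts. These are immortalized cells that lack Ku70 (gene Xrcc6), a protein that holds broken DNA ends for non-homologous end joining. The factors were Klf2, Klf3, Klf4, Klf5, Klf6, Klf7, Klf9, Klf10, Klf13 and Klf15, which are 10 of 18434 protein-coding genes on the array and are read by 18 of its 41174 probes. They were found by gene name on the probes, and the family was picked out with its differences between treated and untreated arrays already known. All values against untreated arrays are therefore a description, given with no test.

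All groups, controls included, carried the Ku70 deletion, and each group held 3 arrays. The first set had 15 arrays. It comprised untreated cells labelled 4 hr, cells given potassium bromate (KBrO3) alone at 20 mM over 1 hr with sampling at either 4 or 24 hr, and cells co-exposed to 20 mM KBrO3 and 150 μM bisphenol A (BPA) and sampled at 4 or 24 hr. KBrO3 is an oxidant that damages DNA bases, and BPA is a plastics monomer with weak estrogenic activity. The co-exposed cells had BPA for 1 hr before KBrO3, during it, and through the 3 or 23 hr of repair after it. No untreated array of this set was labelled 24 hr, so time in culture and treatment cannot be told apart at 24 hr. The same holds for the changes from 4 to 24 hr. Of the treated groups of this set, only KBrO3 alone at 4 hr shared a slide with untreated arrays. The second set had 9 arrays, of untreated cells with no time in the labels and of cells given 150 μM BPA alone and labelled 4 or 24 hr, which the methods describe as 5 and 25 hr in BPA. Each level below is the log2 of the background-subtracted signal minus the 75th percentile of the same array, and levels are compared within a set only. They are relative to other transcripts of the same array and depend on the probe, so that the level of one gene cannot be set against that of another. Fewer cells carrying a transcript and less of it per cell cannot be told apart in these bulk samples.

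The family binds GC-rich and CACCC-type DNA through zinc fingers at the end of the protein, and its members differ mainly in the region before the fingers. Klf2, Klf4, Klf5, Klf6 and Klf7 act largely as activators that recruit acetyltransferases. Klf3 represses through the corepressor CtBP, and Klf9, Klf10 and Klf13 repress through the Sin3 corepressor. Klf15 stands apart as a regulator of amino acid and glucose metabolism and a classical target of the glucocorticoid receptor. Several members are early-response genes in fibroblasts, where Klf4 is best known for halting growth and for reprogramming to pluripotency.

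The arrays of the first set had 57.7 to 68.1% of spots well above background and those of the second had 76.4 to 79.4%. All 10 factors passed the filter in both sets, which asked for 1 or more probes well above background on all 3 arrays of some group. 9 of the 10 were so on every array through their brightest probe, and the exception was Klf15. The median residual SD of a probe was 0.11 among the 15 arrays and 0.32 among the 9, so that the BPA-only values are less precise. Of 10 fibroblast markers, 9 were well above background on every array of the first set and 10 on every array of the second. Defining markers of other cell types, namely Pecam1 (endothelium) and Ptprc (leukocytes), were well above background on no array of either set, nor was Cdh1 (epithelium) in the first set. Among others, Krt14, Tek, Cd3e and Cd68 were so on all arrays of both sets. The Xrcc6 probe was well above background on all 24 arrays, and with no array of intact cells it does not check the deletion.

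The start-site sequences below were chosen because Klf4, Klf6 and Klf9 followed each other closely over the arrays while Klf15 went the opposite way. They are the 250 bases before the annotated start (RefSeq, GRCm38.p6), written 5′ to 3′ on the strand of the gene. Promoters were found for 8 of the 10 factors, and Klf5 and Klf10 had no entry. Capitals mark matches on either strand to an E-box (CACGTG), an AP-1 site (TGANTCA), the core of an antioxidant response element (TGACNNNGC) or a CCAAT box (CCAAT).
Klf4 promoter, chr4:55532476-55532725, minus strand: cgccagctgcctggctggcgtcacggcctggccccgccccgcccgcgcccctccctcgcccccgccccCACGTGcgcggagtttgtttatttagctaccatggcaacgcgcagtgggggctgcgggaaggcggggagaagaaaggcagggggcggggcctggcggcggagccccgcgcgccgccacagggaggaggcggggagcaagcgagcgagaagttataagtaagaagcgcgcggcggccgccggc
Klf6 promoter, chr13:5861239-5861488, plus strand: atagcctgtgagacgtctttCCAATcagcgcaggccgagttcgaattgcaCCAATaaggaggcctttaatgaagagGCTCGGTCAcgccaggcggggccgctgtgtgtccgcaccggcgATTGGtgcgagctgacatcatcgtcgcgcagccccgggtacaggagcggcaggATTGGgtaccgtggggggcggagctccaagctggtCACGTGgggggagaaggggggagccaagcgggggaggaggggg
Klf9 promoter, chr19:23140976-23141225, plus strand: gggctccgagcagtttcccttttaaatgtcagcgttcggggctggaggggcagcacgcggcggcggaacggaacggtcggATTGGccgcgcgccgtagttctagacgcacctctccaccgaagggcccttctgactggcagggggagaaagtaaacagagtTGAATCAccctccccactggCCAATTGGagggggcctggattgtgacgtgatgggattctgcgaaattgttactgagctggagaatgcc
Klf15 promoter, chr6:90462326-90462575, plus strand: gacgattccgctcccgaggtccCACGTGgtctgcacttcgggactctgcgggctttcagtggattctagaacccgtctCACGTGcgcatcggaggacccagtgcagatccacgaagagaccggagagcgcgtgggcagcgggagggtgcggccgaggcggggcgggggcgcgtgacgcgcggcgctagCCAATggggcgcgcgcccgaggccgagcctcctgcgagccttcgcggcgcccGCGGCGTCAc

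Matches were counted in the whole 300-base window, 250 bases before to 50 after the start, on both strands. An E-box was found in the Klf4, Klf6 and Klf15 windows and in 7.15% of 32851 promoters of the same length. Klf15 held 3 of them, starting 228, 172 and 3 bases upstream of the start. The last of these crosses the start, so that only its first bases are in the stretch shown, where they overlap the antioxidant core. The AP-1 letters were found only in Klf9 among the 8 factors, 89 bases upstream, and in 7.81% of all promoters. The antioxidant core was found in Klf3, Klf6 and Klf15 and in 12.4% of promoters. CCAAT boxes were found in Klf6 (4 matches), Klf9 (3), Klf13 (2) and Klf15 (1), and in 37.4% of promoters. The GC box (GGGCGG) was found in 7 of the 8 factors, all but Klf9, against 35.7% of promoters, and the CACCC box (CCACCC) in 4 of the 8 against 31.5%. No window of the 8 held a cyclic AMP response element (TGACGTCA, 1.79% of promoters), a palindromic glucocorticoid response element (0.00913%) or a CArG box (1.63%). These matches describe letters in a short window and say nothing of binding.

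Among the activators, Klf4 differed most from untreated cells at 4 hr of KBrO3 alone or co-exposure. The 3 untreated arrays of the first set read 3.49, 3.55 and 3.55. After KBrO3 alone the arrays read 6.18, 6.16 and 6.10 at 4 hr and 4.40, 4.40 and 4.44 at 24 hr. The co-exposed arrays read 6.13, 6.13 and 6.08 at 4 hr and 4.55, 4.55 and 4.43 at 24 hr. The untreated arrays thus lay below all treated arrays, and the 4 hr arrays above the 24 hr arrays. The group means differed from untreated by 2.61 on the log2 scale (6.11-fold) after KBrO3 alone at 4 hr, by 2.58 after co-exposure at 4 hr, and by 0.88 and 0.98 at 24 hr. With BPA alone the Klf4 level was 3.47 ± 0.37 (SD, n = 3) untreated, 4.49 ± 0.19 at 4 hr and 3.67 ± 0.59 at 24 hr. The 4 hr arrays lay above the untreated ones, with a mean 2.03-fold higher, and the 24 hr arrays overlapped them. With slide as a block the 4 hr difference was 0.53 in place of 1.02, which is under 1.5-fold.

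Klf6, an activator named for its induction after injury, was likewise highest at 4 hr and lowest in untreated cells, at a smaller scale. Its arrays read 3.74, 3.70 and 3.79 untreated, 4.80, 4.80 and 4.80 after KBrO3 alone at 4 hr, and 4.82, 4.85 and 4.83 after co-exposure at 4 hr. At 24 hr they read 4.07, 4.06 and 4.09 after KBrO3 alone and 4.17, 4.15 and 4.13 after co-exposure. No treated array of the first set overlapped the untreated ones, and the mean was 2.08-fold higher after KBrO3 alone at 4 hr and 1.26-fold higher at 24 hr. With normexp the 24 hr difference was 0.70 in place of 0.33. Its second probe gave 2.09-fold and 1.18-fold for these. On the first probe the co-exposed arrays lay just above the KBrO3-only arrays at 4 hr, and on the second they lay below them (means of 3.64 and 3.98).

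Klf5, an activator linked to proliferation, was low in untreated cells of the first set, at -1.84, -1.74 and -1.52. With KBrO3 alone it read 0.43, 0.42 and 0.41 at 4 hr and 0.02, -0.12 and -0.07 at 24 hr. Co-exposed arrays lay between these and the untreated ones, at -0.39, -0.32 and -0.35 at 4 hr and -0.72, -0.72 and -0.85 at 24 hr. The 5 groups did not overlap each other. Relative to untreated cells the means were 4.35-fold and 3.13-fold higher at the earlier and later time of KBrO3 alone, and 2.55-fold and 1.92-fold higher after co-exposure. With normexp the co-exposed differences shrank from 1.35 to 0.72 at 4 hr and from 0.94 to 0.36 at 24 hr, the latter under 1.5-fold, and those of KBrO3 alone from 2.12 to 1.42 and from 1.65 to 0.98.

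Klf2 and Klf7 completed the activators. Klf2, known for keeping endothelium and T cells quiet, had a mean of 6.28 ± 0.25 (SD, n = 3) untreated and group means between 5.96 and 6.76 in the treated groups of the first set. These means lay within 1.5-fold of untreated, and its reading depended on the probe, as given further on. It also depended on the processing. At 4 hr the alternatives gave differences of -0.10 to 0.69 for KBrO3 alone and 0.06 to 0.78 for co-exposure, the upper ends beyond 1.5-fold. Klf7, known from neuronal development, was lower after treatment. Its level was 1.80 ± 0.033 untreated, 0.83 ± 0.014 after KBrO3 alone at 4 hr and 0.63 ± 0.0028 after co-exposure at 4 hr, with no overlap. At 24 hr it was 1.64 ± 0.079 after KBrO3 alone and 1.14 ± 0.10 after co-exposure, both below the untreated arrays, although the difference of KBrO3 alone turned to 0.10 with normexp.

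Of the repressors, Klf9 and Klf10 were higher after KBrO3 and Klf3 was lower. Klf9, a glucocorticoid and thyroid hormone target, read 1.18, 1.18 and 1.37 in untreated cells of the first set. It read 2.96, 2.92 and 2.92 after KBrO3 alone at 4 hr and 2.78, 2.88 and 2.76 after co-exposure at 4 hr. The 24 hr arrays read 1.51, 1.51 and 1.65 after KBrO3 alone and 2.26, 2.23 and 2.06 after co-exposure. The 5 groups did not overlap, and the mean of the KBrO3-only group at 4 hr was 3.23-fold that of untreated cells. With BPA alone the untreated arrays read 0.70, -0.18 and 0.63, and every treated array was higher, at 1.47, 0.75 and 1.45 at 4 hr and 1.53, 1.51 and 1.70 at 24 hr. Klf9 was the only one of the 10 to lie beyond 1.5-fold of untreated, with no overlap, at both times of BPA alone. Without the second untreated array its difference at 4 hr was 0.56 in place of 0.84, which is under 1.5-fold.

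Klf10, first described as an early gene of transforming growth factor beta, read 1.03, 1.01 and 1.06 in untreated cells. At 4 hr it read 2.61, 2.60 and 2.63 after KBrO3 alone and 2.72, 2.70 and 2.76 after co-exposure. At 24 hr the KBrO3-only arrays read 1.41, 1.52 and 1.49 and the co-exposed arrays 0.65, 0.60 and 0.61. Co-exposed cells thus passed from above untreated cells at 4 hr to below them at 24 hr, while the KBrO3-only arrays stayed above. The difference of co-exposed from untreated cells at 24 hr was -0.41, under 1.5-fold, and it shrank to -0.09 with median scaling. BPA alone gave 2.11, 2.52 and 2.08 at 4 hr, which overlapped its untreated arrays at 2.12, 1.75 and 2.26, and 0.82, 0.92 and 1.24 at 24 hr, which were all lower. The mean at 24 hr of BPA alone was lower than untreated by 1.05 on the log2 scale.

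Klf3 had a level of 0.30 ± 0.22 (SD, n = 3) untreated, -0.40 ± 0.0057 after KBrO3 alone at 4 hr and -0.97 ± 0.11 after co-exposure at 4 hr, with no overlap. At 24 hr both treated groups overlapped the untreated arrays, with means of 0.37 and 0.20. On the second Klf3 probe both lay above the untreated arrays at 24 hr, by 0.35 and 0.26. In the second set the untreated arrays of Klf3 ran from -1.23 to 0.81 and took in all 6 treated arrays. On the second probe those untreated arrays ran from -0.31 to -0.20, and all 6 treated arrays lay below them. The difference at 4 hr of BPA alone was -0.49 on the second probe and 0.05 on the first. Klf13, which was first described as an activator of Ccl5 in T cells, had means of 1.02 untreated, 1.37 after KBrO3 alone at 4 hr and 0.83 after co-exposure at 4 hr. The KBrO3-only arrays thus lay above the untreated ones and the co-exposed arrays below them, with no overlap. Both directions turned with the dim second probe (-0.38 and 0.41), and that of co-exposure was lost with normexp (0.014). At 24 hr its mean after KBrO3 alone was 0.36, and the co-exposed arrays lay between -0.22 and 0.16.

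Klf15 had the widest range of the 10. The untreated arrays of the first set read 0.34, 0.44 and 0.27. After KBrO3 alone at 4 hr none of the 3 arrays had the probe well above background (-5.30, -5.38 and -5.14), so that only a bound can be given, of at least 44.9-fold lower than untreated. This bound takes, for each dim array, the dimmest signal that counted as well above background, or the probe's own reading where that was larger. It holds for these background-subtracted signals: with normexp background correction the measured difference was -3.31 in place of -5.63. Co-exposed arrays at 4 hr were measurable at -3.27, -3.40 and -3.26. At 24 hr the KBrO3-only arrays read -1.56, -1.57 and -1.77 and the co-exposed arrays -0.23, -0.19 and 0.24. The groups did not overlap, and the co-exposed arrays at 24 hr lay nearest to untreated. BPA alone gave -0.51, -0.25 and -0.91 at 4 hr and 1.24, 1.07 and 1.28 at 24 hr, against -0.03, 0.13 and -0.32 untreated. The second probe of Klf15, dimmer at every mean, had the same sign as the first in all 6 comparisons with untreated cells but smaller differences at 4 hr of the first set. For KBrO3 alone, where it too was not well above background, its bound was 3.32-fold, and for co-exposure it was 2.66-fold lower, against 12.7-fold for the first probe.

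**Figure D1:**
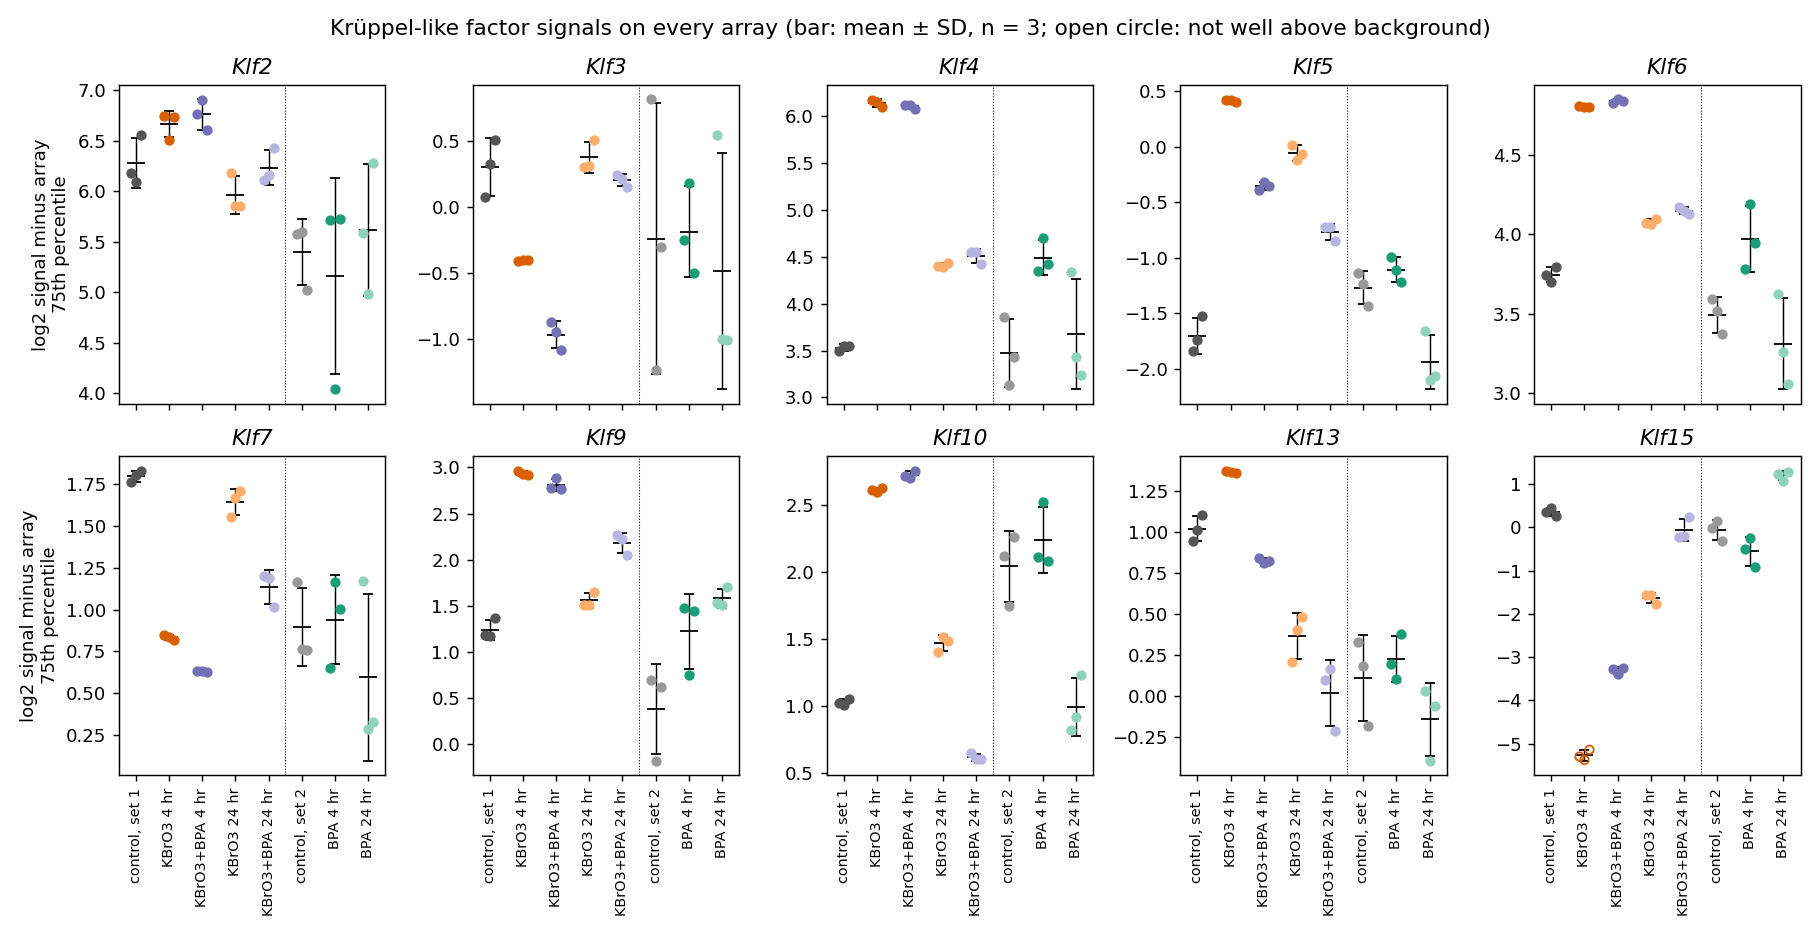
Log2 signal minus the array's 75th percentile for each factor on each of the 24 arrays, with bars for the mean and SD of 3 arrays; the first set is left of the dotted line and the second right of it, and KBrO3+BPA stands for co-exposure. Klf4, Klf6, Klf9 and Klf10 stand highest at 4 hr of KBrO3 or co-exposure, and Klf15 is lowest there, with open circles at about -5 where the probe was not well above background.

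Counted over the family, 8 of the 10 lay beyond 1.5-fold of untreated with no overlap of the arrays after KBrO3 alone at 4 hr, against 45.2% of all 14100 genes. Higher were Klf4, Klf5, Klf6, Klf9 and Klf10, and lower were Klf3, Klf7 and Klf15. The count was also 8 after co-exposure at 4 hr, against 55.7% of genes. It was 4 after KBrO3 alone at 24 hr (33.5% of genes), namely Klf4 and Klf5 higher and Klf13 and Klf15 lower. Klf13 fell short of 1.5-fold without the first KBrO3-only array of 24 hr (-0.58), and its dim second probe read higher (0.58). The count was 5 after co-exposure at 24 hr (40.3%), namely Klf4, Klf5 and Klf9 higher and Klf7 and Klf13 lower. With median scaling Klf7 fell short of 1.5-fold there (-0.34 in place of -0.66). In the second set the count was 2 at 4 hr of BPA alone (16.0% of 15740 genes), namely Klf4 and Klf9, both higher. It was 4 at 24 hr (14.3%), namely Klf9 and Klf15 higher and Klf5 and Klf10 lower. With slide as a block Klf5 fell short of 1.5-fold at 24 hr (-0.55 in place of -0.67). The count at 4 hr of BPA was 1 without the second untreated array, where Klf9 dropped out, and 1 with slide as a block, where Klf4 did. Since the family was picked on these comparisons, and those of a set share their untreated arrays, nothing is read from the counts.

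**Figure D2:**
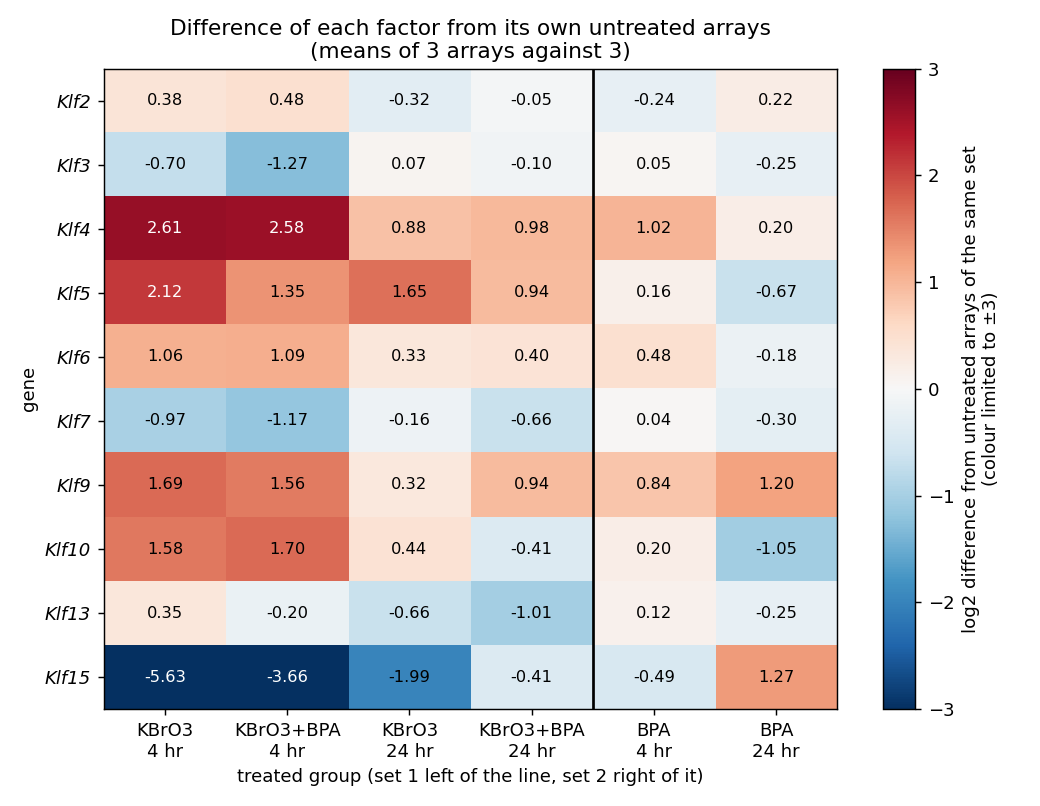
Difference of the mean log2 level of 3 treated arrays from the mean of the 3 untreated arrays of the same set, with colours limited to ±3. The 4 hr columns of the first set hold the largest differences, from 2.61 for Klf4 to -5.63 for Klf15, the latter measured on a probe not well above background after KBrO3.

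The co-exposed and KBrO3-only groups were then compared directly, to ask what BPA added to KBrO3. These comparisons hold no untreated array, although their arrays entered the comparisons on which the family was picked. A gene was called where limma's moderated test gave a Bonferroni-adjusted p under 0.01 over all 27310 probes tested and the difference passed 1.5-fold. At 4 hr 2 of the 10 were called, against 5.99% of all genes tested. Klf15 was at least 3.54-fold higher in co-exposed cells (adjusted p = 4.34e-05). Klf5 was 1.71-fold lower (log2 difference -0.77, SE 0.0714), with an adjusted p = 0.00597. Klf4, Klf6 and Klf10 differed by -0.03 (95% interval -0.13 to 0.06), 0.03 (-0.04 to 0.11) and 0.11 (0.03 to 0.20). The Klf5 call was lost when any array but the first or the third untreated one was left out (adjusted p up to 0.0701), and its second probe, not well above background after KBrO3 alone, went the opposite way, at least 2.80-fold higher and not called (adjusted p = 1). The Klf15 call was lost after normexp background correction, where the difference was 0.67, and in an error-weighted fit (adjusted p = 0.0701). The second Klf15 probe, not well above background after KBrO3 alone, was at least 1.25-fold higher and not called (adjusted p = 1). The groups lay on different slides, which had no group in common, so that slide cannot be told apart from treatment.

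At 24 hr 2 of the 10 were again called, against 7.43% of genes. Klf15 was 2.98-fold higher in co-exposed cells (log2 difference 1.57, SE 0.116, adjusted p = 0.000499). With its second probe the difference was 1.06 and not called (adjusted p = 0.912). Klf10 was 1.81-fold lower (log2 difference -0.85, SE 0.0373, adjusted p = 1.45e-06). Klf5, Klf9 and Klf7 were not called, with log2 differences of -0.71, 0.62 and -0.51 and adjusted p of 0.0145, 0.0424 and 0.0216. Within the slide that held 2 arrays of each group, the differences were 1.46 for Klf15, -0.88 for Klf10 and -0.63 for Klf5. With slide as a block Klf5 passed as well (adjusted p = 0.00514). In fits of the 6 arrays compared, neither Klf15 nor Klf10 was called, and the Klf10 call was also lost with median scaling (adjusted p = 0.0878) and with normexp (0.0591).

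The difference between co-exposed and KBrO3-only cells was itself compared between the times, as an interaction. Of the 10, Klf10 was called, against 4.91% of genes. Its difference was 0.11 at 4 hr (-0.03 with median scaling) and -0.85 at 24 hr, a change of -0.97 (SE 0.0527, adjusted p = 1.76e-05). The call held without any one of the 15 arrays and was lost with median scaling (-0.66) and with normexp (-0.98, adjusted p = 0.596). The 4 hr part of this change lies between slides with no group in common, so that slide cannot be told apart from it. For Klf9 the change was 0.75 (95% interval 0.53 to 0.96, adjusted p = 0.209). For Klf15 no change is given, because its probe was not well above background at 4 hr of KBrO3 alone and the direction turned with normexp and with the second probe.

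From 4 to 24 hr after KBrO3 alone, 7 of the 10 were called, against 29.7% of genes. Klf4 fell 3.32-fold (log2 difference -1.73, SE 0.0421), with an adjusted p = 1.79e-09. Klf9 fell by 1.37 and Klf10 fell by 1.14, and smaller falls were called for Klf13 (-1.01) and Klf6 (-0.72). Klf15 rose at least 11.3-fold (adjusted p = 3.93e-08) and Klf7 rose 1.75-fold (adjusted p = 0.00014). Klf3 was not called (0.78, adjusted p = 0.116), whereas its second probe was (0.88, adjusted p = 0.000197). The Klf15 bound holds for these signals only: with normexp the difference was 1.60 in place of 3.64, still called, and the second probe, dim at 4 hr as well, was at least 1.17-fold higher and not called (adjusted p = 1). The Klf13 call was lost when any array but the second or the third co-exposed one of 24 hr was left out (adjusted p up to 0.0563), and its dim second probe differed by 0.95 in the opposite direction. The Klf6 call was lost under quantile normalization, where its difference was -0.32, as was that of Klf13 (-0.92), and the Klf6, Klf7 and Klf13 calls were lost with median scaling and with normexp. The Klf6 call was also lost with its second probe (-0.83, adjusted p = 0.0584). In fits of the 6 arrays compared only Klf4 and Klf15 were called, and Klf9 and Klf10 had adjusted p of 0.0206 and 0.0164. These arrays shared no slide between the times, so that slide and time cannot be told apart. The median difference of the 10 was -0.71 and that of all genes -0.13.

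In co-exposed cells 5 of the 10 were called between 4 and 24 hr, against 34.7% of genes. Klf10 fell by 2.11 (SE 0.0373, adjusted p = 4.42e-11), a 4.31-fold drop, and Klf4 fell by 1.60 (SE 0.0421, adjusted p = 4.39e-09). Klf6 fell by 0.69, a call lost with quantile normalization (-0.44), with median scaling (-0.23), with normexp and with the second probe (-0.29, adjusted p = 1). Klf15 rose 9.53-fold (log2 difference 3.25, SE 0.116, adjusted p = 1.43e-07) and Klf3 rose 2.24-fold (adjusted p = 0.00167). With slide as a block the Klf3 call was lost (1.09, adjusted p = 1). The calls of Klf4, Klf6, Klf10 and Klf15 remained, and Klf13 passed as well (-0.93, adjusted p = 0.00531). However, co-exposed cells of both times were never placed together on any slide. The block fit linked the times only through the first KBrO3-only array of 24 hr, hybridised beside the earlier co-exposed cells. Slide and time were thus told apart by that array alone. With the second probe of Klf15 the difference was 0.97 and not called (adjusted p = 1), and in a fit of the 6 arrays compared the Klf15 call was lost (adjusted p = 0.0105). The Klf3 call was also lost without the second or the third co-exposed array of 4 hr or any co-exposed array of 24 hr (adjusted p up to 0.0213). The second probe of Klf3 was called as well (0.89, adjusted p = 0.000172). The median of the 10 was -0.58 against -0.16 for all genes.

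**Figure D3:**
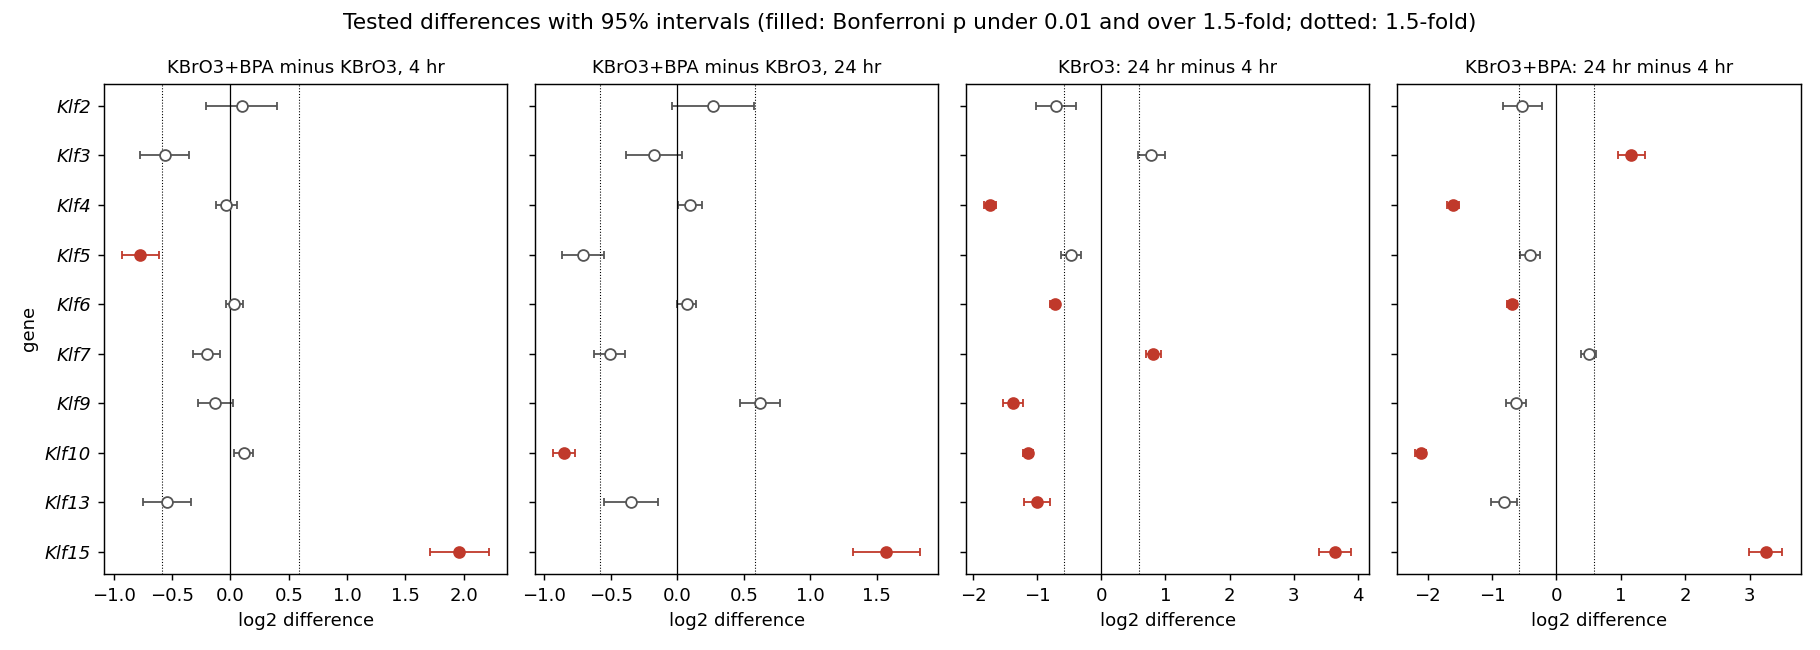
Log2 difference of each factor in the tested comparisons without untreated arrays, with 95% intervals; filled points were called, dotted lines mark 1.5-fold, and the Klf15 points that use KBrO3 alone at 4 hr rest on a probe not well above background there. Klf15 is higher with BPA added at both times and rises from 4 to 24 hr in both treatments, and Klf4, Klf6 and Klf10 lie to the left of 0 in both time comparisons.

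Fibroblast markers moved with time in the same arrays. Of 10 tested, 8 were called as falling from 4 to 24 hr after KBrO3 alone, where 29.7% of all genes were called. After co-exposure 7 were called as falling (34.7% of all genes called), and none was called as rising in either. Their mean level per array was 5.63 to 5.71 untreated, 5.34 to 5.40 at 4 hr of KBrO3 alone, 5.08 to 5.11 at 4 hr of co-exposure, 4.01 to 4.12 at 24 hr of KBrO3 alone and 3.51 to 3.58 at 24 hr of co-exposure. Thy1, Lum and Pdgfrb were also lower with BPA added at 24 hr. The mean over 5 endothelial markers was -6.45 to -6.05 untreated, -5.80 to -5.47 at 4 hr of KBrO3 alone and -5.35 to -5.08 at 4 hr of co-exposure, with no overlap. On each of these arrays at most 2 of the 5 were well above background, so that these means rest mostly on readings near background. The mean over 5 epithelial markers ranged from -6.18 to -4.96 on the arrays of the first set, with at most 3 of the 5 well above background. Single markers of other cell types moved with the factors at 4 hr. Against untreated, Krt14, Kdr and Cd68 were higher by 0.92, 1.52 and 2.25 on the log2 scale after KBrO3 alone and by 1.78, 1.41 and 1.66 after co-exposure. Krt8, not well above background in untreated cells, had lower bounds of 1.25-fold for KBrO3 alone and 2.11-fold for co-exposure. Krt18, another epithelial marker, went the other way after co-exposure, more than 1.5-fold lower than untreated with no overlap of the arrays. Cd68, a macrophage gene, fell from 4 to 24 hr of KBrO3 alone (-1.09). The part of these markers in the changes of the factors was not tested.

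Between 4 and 24 hr of BPA alone limma called none of the 10, against 0.0508% of 15740 genes. At an unadjusted p under 0.05 there were 5 of the 10, against 21.3% of genes. At a Benjamini-Hochberg adjusted p under 0.05 there were 3, against 4.30% of genes. By limma Klf15 differed by 1.76 (SE 0.223, adjusted p = 0.00448), Klf10 by -1.25 (SE 0.224, adjusted p = 0.0175) and Klf5 by -0.84 (SE 0.195, adjusted p = 0.0499). The arrays of the times did not overlap for these factors. The mean over the 10 fibroblast markers was 4.64 to 4.77 untreated, overlapped this range at 4 hr of BPA alone, and lay below both at 24 hr (4.32 to 4.40), and its part in these differences was not tested.

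The values of several factors depended on the probe. Of the 10 factors, 8 had 2 probes, and at 4 hr the probes of 4 genes gave opposite signs for co-exposure against KBrO3 alone. The brighter Klf2 probe lies in the coding part of the gene and is among the most GC-rich of the array (78.3%, with 11 of 41174 probes higher), whereas the second Klf2 probe starts 1376 bases further along the gene and has 43.3%. The brighter Klf5 and Klf13 probes lie in the part coding for the zinc fingers and span an intron on the genome. They hold the conserved stretch coding for the linker between fingers, in capitals below, which 46 of the 41174 probes (0.112%) hold. They are shown because their readings rest on a stretch that resembles other members of the family; cross-hybridization was not tested. Positions are those of the scanner files on mouse build mm7.
Klf2 probe, chr8:70842757-70842816: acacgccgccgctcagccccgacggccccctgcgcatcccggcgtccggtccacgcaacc
Klf5 probe, chr14:93704580-93714312: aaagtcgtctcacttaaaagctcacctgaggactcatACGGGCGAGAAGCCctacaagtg
Klf13 probe, chr7:59641560-59687788: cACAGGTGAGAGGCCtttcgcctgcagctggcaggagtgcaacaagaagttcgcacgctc

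The second Klf2 probe read 3.61, 3.47 and 3.48 untreated and 3.37, 3.42 and 3.41 after KBrO3 alone at 4 hr. Co-exposed arrays at 4 hr read 1.72, 1.67 and 1.70, below all others of the set. The difference from KBrO3 alone was -1.70 (SE 0.0866, adjusted p = 8.04e-06), where the brighter probe gave 0.10 (95% interval -0.21 to 0.40). At 24 hr the second probe read 2.61, 2.75 and 2.89 after KBrO3 alone and 2.37, 2.45 and 2.11 after co-exposure. The change of the difference between the times was 1.26 (SE 0.122, adjusted p = 0.00977). With BPA alone it read 2.71, 2.70 and 2.69 at 4 hr, below the untreated arrays at 3.40, 3.79 and 3.40. By this probe Klf2 was 1.78-fold lower than untreated at 4 hr of BPA alone, 3.53-fold lower at 4 hr of co-exposure and 1.09-fold lower at 4 hr of KBrO3 alone.

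Over the 15 arrays of the first set the factors fell into patterns that can be described by their correlation, which gives no test because the arrays form 5 groups. Klf4 had r = 0.998 with Klf6, 0.959 with Klf9, 0.884 with Klf10 and 0.772 with Klf5. With Klf7, Klf15 and Klf3 it had r = -0.923, -0.915 and -0.861. Among 14100 genes those most like Klf4 were Il18r1 (r = 0.999), Klf6 and Gclc (0.997), of which Gclc encodes the catalytic subunit for glutathione synthesis. Gclc had mean levels of 0.27 untreated, 5.57 at 4 hr of KBrO3 alone, 5.49 at 4 hr of co-exposure, 1.71 at 24 hr of KBrO3 alone and 2.09 at 24 hr of co-exposure. Those most like Klf15 were Ncoa7 (r = 0.996), Mbd4 (0.992) and AI597479 (0.990), of which Mbd4 encodes a DNA glycosylase. These values of r rest in part on the 3 arrays of KBrO3 alone at 4 hr, where the Klf15 probe was not well above background. Mbd4 had mean levels of -0.30 untreated, -2.44 at 4 hr of KBrO3 alone, -1.58 at 4 hr of co-exposure, -1.05 at 24 hr of KBrO3 alone and -0.54 at 24 hr of co-exposure.

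**Figure D4:**
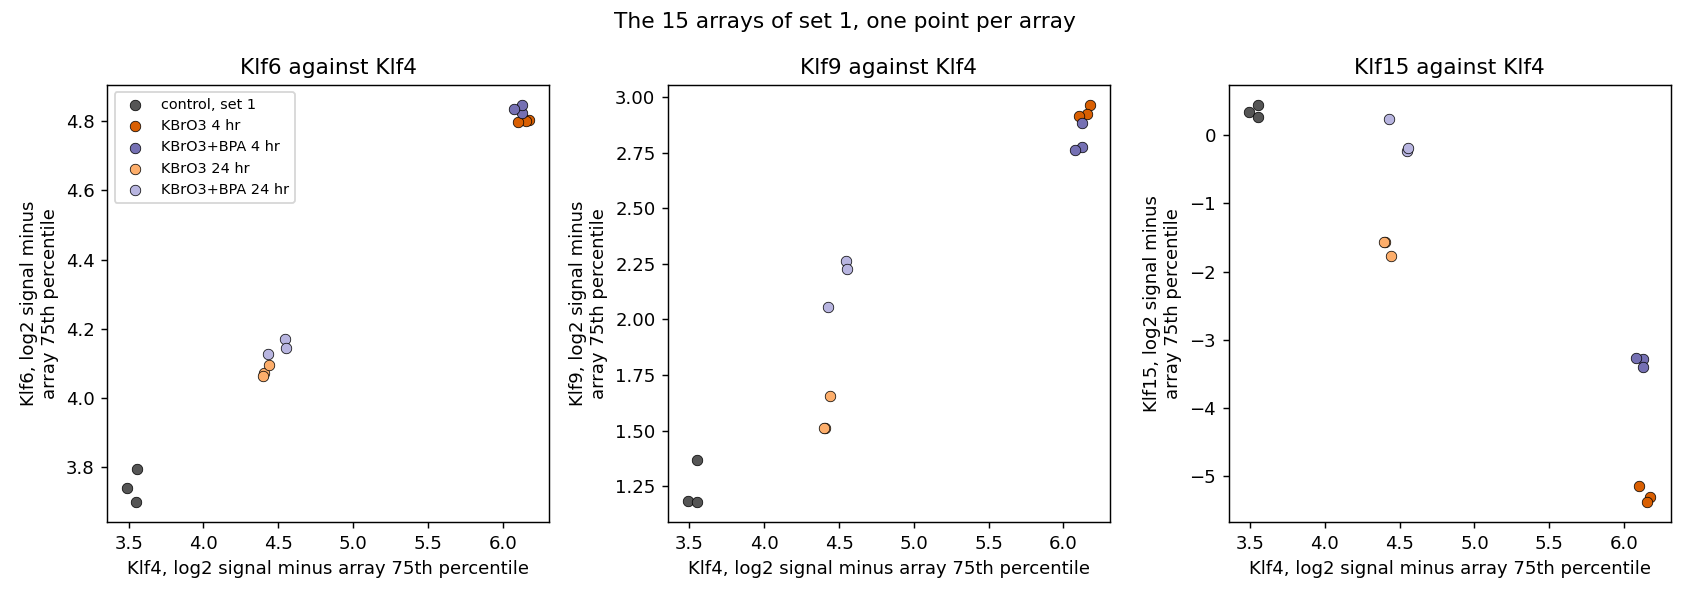
Log2 levels of Klf6, Klf9 and Klf15 against Klf4 on the 15 arrays of the first set, one point per array coloured by group. Klf6 and Klf9 climb with Klf4 and Klf15 descends, and the untreated, 24 hr and 4 hr arrays stand apart from each other along the Klf4 axis.

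Of the 15 further members of the Klf and Sp family on the array, 11 could be tested in the first set. Klf8, a repressor that uses CtBP as Klf3 does, was lower with BPA added to KBrO3 at 4 hr (log2 difference -1.33, SE 0.0994, adjusted p = 0.000562) and was the only one called there. None was called at 24 hr. From 4 to 24 hr of KBrO3 alone Klf16 fell (-1.44, SE 0.124) and Klf11, a close relative of Klf10, rose (0.61, SE 0.0562), and after co-exposure Klf8 rose (2.20, SE 0.0994). Of the 13 tested in the second set none was called between the times of BPA alone.

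Genes that respond to the glucocorticoid receptor, as Klf9 and Klf15 do, were compared as a list of 8 tested genes. From 4 to 24 hr of KBrO3 alone 6 fell and none rose, where 29.7% of all genes were called, with a median of -1.47 against -0.13 for all genes. The largest falls were those of Errfi1 (-2.40), Sgk1 (-2.17) and Cdkn1c (-2.13). After co-exposure 5 fell and none rose (34.7% of all genes called), led by Errfi1 (-2.50), Dusp1 (-2.19) and Sgk1 (-1.54). Klf9 moved with this list after KBrO3 alone, and Klf15 moved against it. Between co-exposure and KBrO3 alone Dusp1, a phosphatase of MAP kinases, was lower at 4 hr (-0.80) and at 24 hr (-1.08), and Cdkn1c was higher at 24 hr (0.68).

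The ERK5 and MEF2 genes that drive Klf2 and Klf4 were all tested, 8 in number. None was called between co-exposure and KBrO3 alone at either time. From 4 to 24 hr of KBrO3 alone Mef2a fell (-1.66, SE 0.0729) and so did Mef2d (-0.85, SE 0.0692), and after co-exposure Mef2a (-1.76) and Map3k2 (-0.73) fell. Of 10 corepressors and coactivators, Sap30 (0.89) and Kat2b (0.86) rose and Hdac1 (-0.74) fell with time after KBrO3 alone, and none was called in the other tested comparisons. Of 6 ubiquitin ligases known to act on the family, Fbxw7 fell with time after KBrO3 alone (-0.92, SE 0.0565) and Btrc rose after co-exposure (1.07, SE 0.0950).

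Of 18 genes known as targets of the family, 16 could be tested. From 4 to 24 hr of KBrO3 alone 8 fell and 1 rose, where 29.7% of all genes were called. Among them were Tagln, a smooth muscle gene (-2.68), the growth arrest gene Cdkn1a, a target of Klf4 and Klf6 (-1.96), and Smad7 (-2.33), and the 1 that rose, named after its value was seen, was Ccnd1 (1.74). After co-exposure 5 fell and 4 rose (34.7% of all genes called), with Tagln at -3.39, Smad7 at -2.42 and Krt19 at -1.96. Those that rose, named after their values were seen, were Bcat2 (1.65), Ccnd1 (1.49), Pdgfa (1.24) and Prodh (0.85). At 4 hr 2 differed between co-exposure and KBrO3 alone, Pdgfa (-0.998) and the Klf15 target Bcat2 (-0.80), both lower with BPA. At 24 hr 2 were higher with BPA, Cdkn1a (1.65, SE 0.0732) and, named after its value was seen, Pdgfa (0.61), and 2 were lower, Krt19 (-1.52) and S1pr1 (-1.07). The median difference of the 16 was -0.35 at 4 hr and 0.08 at 24 hr, against -0.02 and 0.0052 for all genes. The lists describe named genes, and no list was tested as a set.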

How the data were processed

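RNA of 24 cultures was hybridised to one-colour Agilent mouse 4x44K arrays. Background-subtracted spot intensity values were deposited by the authors as scanner output of Agilent Feature Extraction, version 9.5.3.1 for the first set and 12.0.0.7 for the second per the file headers, with no normalization between arrays. The deposited series table holds the same intensities: 1080432 of 1080432 values were equal to the scanner values. Signals were taken to log2, the log2 of the 75th percentile of each array was subtracted, control spots were left out, and spots of one probe were averaged. The methods used an error-weighted one-way ANOVA with Bonferroni adjustment, and their thresholds were kept.

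Probes were tested where all 3 arrays of some group of the set had them well above background (27310 probes and 14100 genes in set 1, 31806 and 15740 in set 2). Each gene is read from its brightest probe, by mean log2 signal over the 24 arrays. limma 3.58.1 (lmFit and eBayes, two-sided) was fitted in R 4.3.3 to each set, with adjustment over all probes tested. A call needed a Bonferroni p under 0.01 and over 1.5-fold. The code was tested on simulated data with 200 changed probes. The deposited design describes 3 independent experiments per time, and the number of arrays limits the precision.

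The members and the gene lists were chosen with earlier results of these data known. All 10 members are named, and of each list at most 3 called genes per tested comparison. Replicate numbers did not pair the arrays: the deviations of same-numbered arrays had a mean correlation of -0.029 in the first set. Alternatives were quantile and median scaling, normexp, filters, adjustments, blocks, weights, the second probe and leaving out each array. Sequences were read from the RefSeq promoter table (GRCm38.p6) and the scanner files with Python 3.11.15. A marker gene, and the mean of the list that holds it, are not reported here.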

Additional observations from a re-analysis of the deposited data

Results flagged for a closer look

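One result was picked out because the same contrast differed between the times by a test of the difference itself. The difference of Klf10 between co-exposed and KBrO3-only cells changed by -0.97 on the log2 scale from 4 to 24 hr. At 4 hr the 3 co-exposed arrays lay above the 3 KBrO3-only arrays, and at 24 hr they lay below them. The 4 hr direction turned with median scaling (-0.03), and the call of the change was lost with median scaling (-0.66) and with normexp. At 4 hr the groups lay on different slides, and an effect of slide cannot be told apart from that of BPA.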

How the results depend on the processing

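Counts of called factors moved with the scaling, the adjustment and the fit. At 4 hr, co-exposure against KBrO3 alone (2 called) gave 0 with normexp and with only the groups compared, and 1 without a filter, with probes above background on every array, with the replicate block, with slide as a random block and with error weights; leaving out single arrays gave 1 to 2. At 24 hr the same comparison (2) gave 1 with median scaling and with normexp, 4 with Benjamini-Hochberg and with slide as a random block, and 0 with only the groups compared. KBrO3 alone over time (7) gave 4 with median scaling, 4 with normexp, 2 with only the groups compared and 9 with Benjamini-Hochberg. Co-exposure over time (5) gave 2 with only the groups compared and 7 with Benjamini-Hochberg. The interaction (1) gave 0 with median scaling and with normexp and 2 with Benjamini-Hochberg, and BPA alone over time (0) gave 3 with Benjamini-Hochberg. BPA alone at 4 hr against untreated (2) gave 1 with slide as a block, and 1 to 3 when single arrays were left out. The second probe changed the sign of 23 of 96 values. These included Klf2 (-1.70), Klf5 (1.59, dim after KBrO3), Klf6 (-0.35) and Klf13 (0.79) for co-exposure against KBrO3 at 4 hr, Klf2 for the same at 24 hr (-0.44) and over time after co-exposure (0.61), Klf13 over time after KBrO3 (0.95) and against untreated at 24 hr (0.58), and Klf2 for co-exposure against untreated at 4 hr (-1.82). The cause of these changes was not tested.

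Replicate numbers did not pair the arrays, and the replicate block moved the counts over time after KBrO3 from 7 to 6 and after co-exposure from 5 to 4. Median scaling moved the median of all genes by up to 0.46 (co-exposure over time) and quantile normalization by up to 0.16. Values from the deposited series table gave the same calls and signs for all 10 factors. Signal over background limits both Klf15 probes at 4 hr of KBrO3 alone and the second probes of Klf5 and Klf13.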
